A study of Mus musculus with 4 samples.

Results

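The genes examined were 10 that encode matricellular proteins, fibulins and close matrix partners, namely Postn, Fbln1, Fbln2, Efemp1, Tnc, Thbs1, Thbs2, Sparc, Fn1 and Vcan. They were chosen by gene name and make up 10 of the 31247 genes with reads in the count table. The RNA came from GFP-positive cells that were sorted out of lungs of Pdgfrb-GFP mice on postnatal day 7, and the labels call these cells myofibroblasts. The cells labelled Dnmt1 CKO (2 libraries) have the genotype Dnmt1-D/D on a background of PDGFRb-GFP with Tbx4-rtTA and Tet-O-Cre. They were compared with wild-type cells that carry PDGFRb-GFP (WT, 2 libraries). In the CKO, rtTA is driven by Tbx4 sequences, which are active in lung mesenchyme, and rtTA in turn drives Cre from the Tet-O promoter. The WT label names neither Tbx4-rtTA nor Tet-O-Cre, so an effect of these transgenes and one of Dnmt1 loss cannot be told apart. Both groups carry the Pdgfrb-GFP reporter, and any doxycycline dosing is not given in the sources used here.

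Matricellular proteins are secreted into the extracellular matrix, where they modulate how cells bind the matrix and respond to growth factors rather than bearing load. Periostin, tenascin-C, thrombospondins and SPARC belong to this class. Fibulins are calcium-binding glycoproteins that join elastic fibres and basement membranes. Fibronectin is a structural glycoprotein and versican a large chondroitin sulphate proteoglycan, so both are matrix partners rather than matricellular proteins in the strict sense. In the neonatal lung, mesenchymal cells build the elastin and collagen scaffold of the growing septa, and matricellular genes are active there.

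The libraries held between 23071657 and 26420648 counted reads. Libraries are named by genotype and a letter in column order, which carries no pairing. Levels are given as CPM, read counts relative to the library's total after scaling by the trimmed mean of M values (TMM). Dnmt1, the targeted gene, stood at 78.1 CPM in CKO A and 29.5 CPM in CKO B, against 144 CPM in WT A and 115 CPM in WT B. It was lower in both CKO libraries, but the log2 change of -1.27 ± 0.57 (SE, n = 2 per genotype) did not pass the test described next (edgeR adjusted p = 0.310). The CKO libraries differed widely, and the log2 change of Dnmt1 was -2.11 without CKO A and -0.72 without CKO B. CKO A alone held reads of Y-linked genes (2494 of Ddx3y, against 0 in CKO B and in both WT libraries). The X-linked Xist was present in CKO A as well, at 164 CPM, against 1081 CPM in CKO B and 849 and 671 CPM in WT. The CKO libraries thus also differ in sex-linked transcripts, and CKO A held transcripts of both kinds. Pdgfrb, whose regulatory sequence drives the reporter, was at 374 and 317 CPM in CKO and 507 and 477 CPM in WT (edgeR adjusted p = 0.0546). DESeq2 called it lower (adjusted p = 0.00734), and limma-voom did not (adjusted p = 0.0541). In edgeR it was called lower with library size alone (adjusted p = 0.0372) and with no filter on low counts (adjusted p = 0.0151). With RLE size factors (adjusted p = 0.0595) or a mean CPM of at least 1 (adjusted p = 0.0538) edgeR did not call it. WT B had reads on 27643 genes, while the other 3 libraries had reads on 21883 to 22532.

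Postn and Fbln2 were higher in CKO, and no other gene of the 10 passed the test. CKO was compared with WT by edgeR's quasi-likelihood test, with Benjamini-Hochberg adjustment over all 15210 genes tested and a threshold of 0.05. The 2 genes called, both higher in CKO, compare with 7.61% of all tested genes called in either direction, 4.85% higher and 2.75% lower. All 10 genes passed the filter on low counts. Their median log2 change was 0.31, and that of all tested genes was -0.01. The change lay above 0 for 9 of the 10, against 49.1% of all tested genes, and for 7 of the 10 without CKO B. The 10 genes were chosen with earlier results of these data known, so this comparison is descriptive. In sorted bulk RNA, more cells of one kind and more RNA per cell cannot be told apart.

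**Figure D1:**
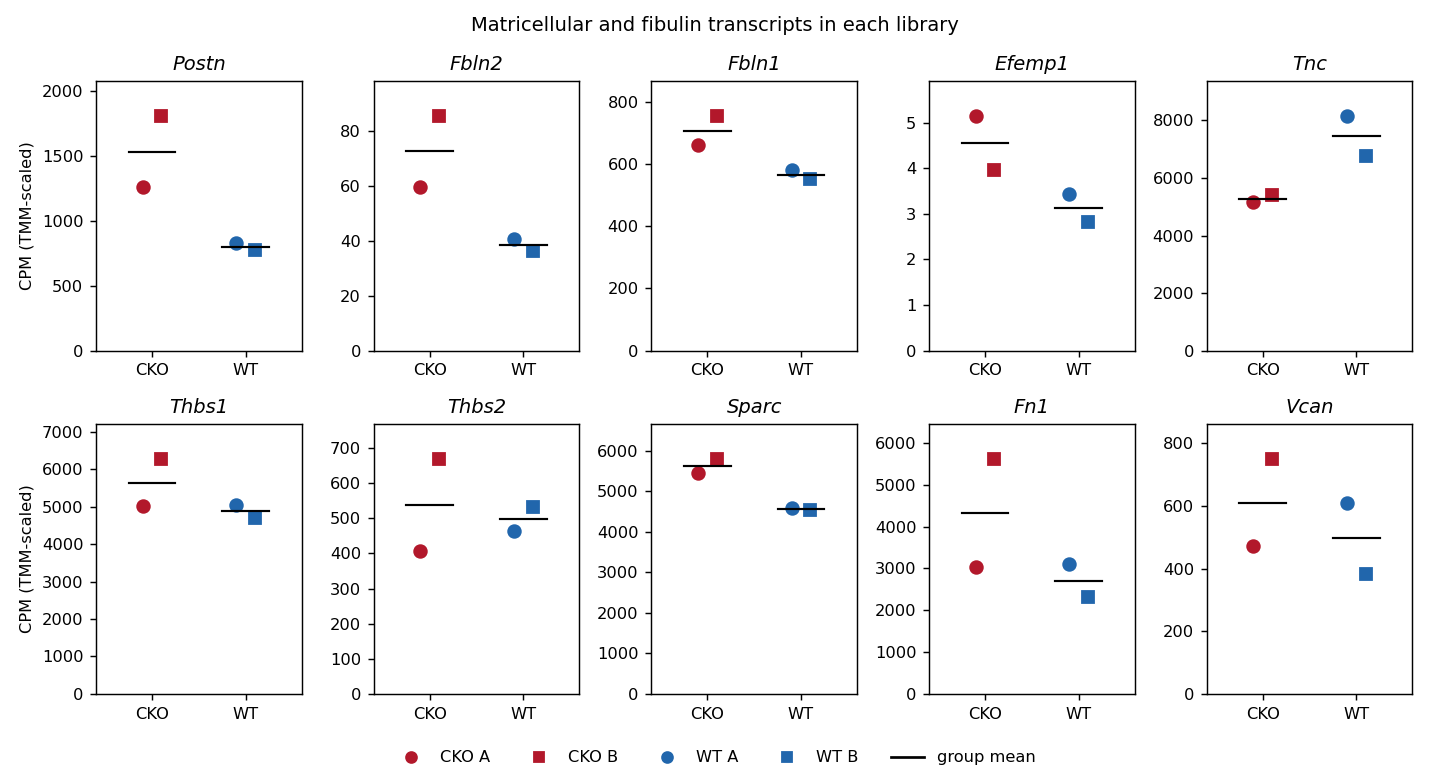
Level of each of the 10 genes in each library, as CPM on a linear axis that starts at 0, with CKO left of WT and a bar at the group mean (n = 2 each). Postn and Fbln2 stand at 1261 and 59.9 CPM or more in both CKO libraries and at 829 and 40.8 CPM or less in both WT libraries, while Tnc is lower in both CKO libraries and Thbs1, Thbs2, Fn1 and Vcan overlap.

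Postn encodes periostin, a matricellular protein that binds integrins and collagen and promotes collagen crosslinking (ENSMUSG00000027750, chromosome 3, 54361109 to 54391037, plus strand, GRCm38). It stood at 1261 CPM in CKO A and 1805 CPM in CKO B, against 829 CPM in WT A and 774 CPM in WT B. Both CKO libraries lay above both WT libraries, and CKO B was the higher of the CKO pair. The mean was 1533 ± 385 CPM in CKO and 801 ± 38.3 CPM in WT (SD, n = 2), and the log2 change was 0.94 ± 0.19 (SE, edgeR adjusted p = 0.0252), a 1.91-fold rise. The call was lost without WT A (adjusted p = 0.0826) and without WT B (adjusted p = 0.158), with log2 changes of 1.00 and 0.90. The authors' deposited table gives Postn a log2 fold change of 0.97 with an adjusted p of 0.000134.

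Fbln2 encodes fibulin-2, which binds elastin precursors, fibronectin and versican (ENSMUSG00000064080, chromosome 6, 91212455 to 91272540, plus strand). It stood at 59.9 CPM in CKO A and 85.5 CPM in CKO B, against 40.8 CPM in WT A and 36.3 CPM in WT B. The libraries followed the order seen for Postn, with CKO B highest, CKO A next and WT B lowest. The mean was 72.7 ± 18.2 CPM in CKO and 38.5 ± 3.21 CPM in WT (SD, n = 2), and the log2 change was 0.92 ± 0.18 (SE, edgeR adjusted p = 0.0265), a 1.89-fold rise. As with Postn, the call was lost without WT A (adjusted p = 0.0529) and without WT B (adjusted p = 0.159). The authors' deposited table gives Fbln2 a log2 fold change of 0.95 with an adjusted p of 0.000368. In that table, which rests on the same libraries, these 2 were also the members with an adjusted p under 0.05.

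The promoters of both called genes are shown because Dnmt1 maintains methylation at CG dinucleotides, which are in capitals in the sequences that follow. Each is the RefSeq window of 250 bases before and 50 after the start, on GRCm38.p6 and read on the gene's plus strand, at chr3:54360857-54361156 for Postn and chr6:91212514-91212813 for Fbln2.
Postn: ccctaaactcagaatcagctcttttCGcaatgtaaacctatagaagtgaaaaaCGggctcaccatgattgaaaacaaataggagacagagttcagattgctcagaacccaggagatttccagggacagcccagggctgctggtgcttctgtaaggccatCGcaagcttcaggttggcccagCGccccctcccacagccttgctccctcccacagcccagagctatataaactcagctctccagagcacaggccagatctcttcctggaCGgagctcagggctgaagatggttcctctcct
Fbln2: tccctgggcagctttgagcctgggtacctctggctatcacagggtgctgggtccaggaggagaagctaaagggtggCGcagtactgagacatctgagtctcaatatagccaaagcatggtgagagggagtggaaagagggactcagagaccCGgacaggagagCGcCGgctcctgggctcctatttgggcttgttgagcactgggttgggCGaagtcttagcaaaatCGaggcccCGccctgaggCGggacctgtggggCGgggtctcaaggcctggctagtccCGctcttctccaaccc
The Postn window held 5 CG dinucleotides and the Fbln2 window 10, where the median of 32851 promoter windows was 7 (quartiles 3 and 20). A TATAAA motif began 26 bases upstream of the Postn start and was absent from the Fbln2 window. TATAAA was found on either strand in 13.6% of all windows. The Fbln2 window held GGGCGG once on each strand and the Postn window did not, and 35.7% of all windows held it. Neither window held TGANTCA (7.81% of all windows) or CCAAT (37.4%), each searched on both strands. RefSeq windows were matched for 8 of the 10 genes, and their CG counts ran from 4 (Thbs2 and Sparc) to 12 (Fbln1 and Vcan). Postn, Fbln1 and Tnc had 2 windows listed, and a single window of each was used. The windows of Fbln2 and Sparc lie inside the spans given for these genes. The CG and motif counts therefore hold for the start used. Methylation was not analysed here, and a match of letters is no evidence of binding.

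**Figure D2:**
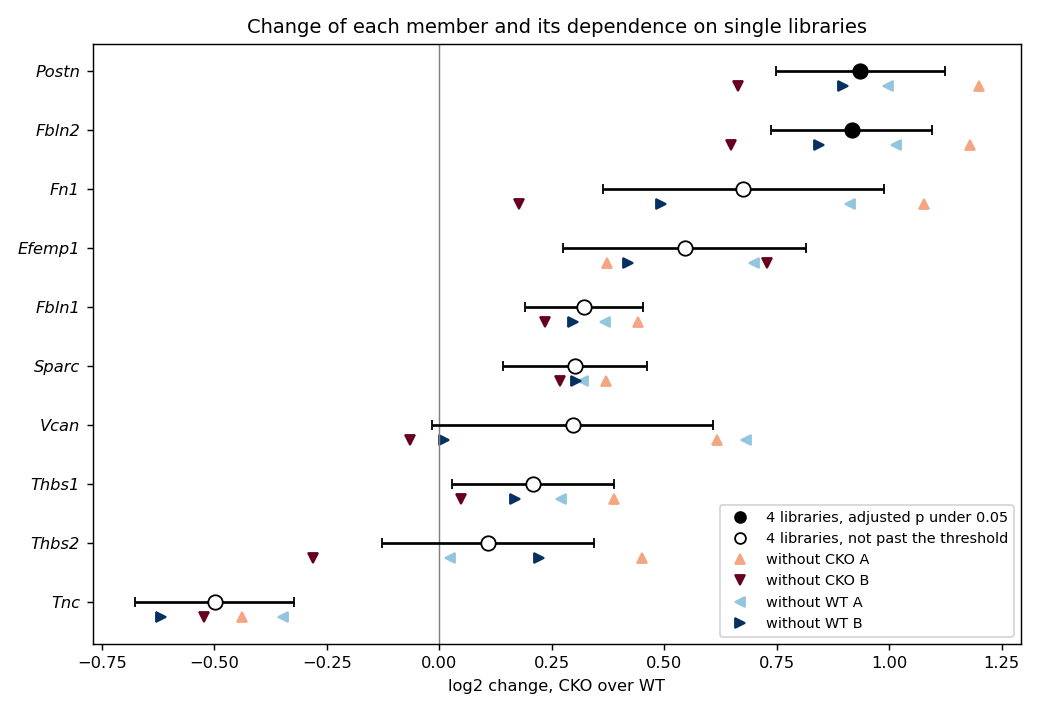
Log2 change of CKO over WT for each of the 10 genes (circle, with SE; filled where the adjusted p is under 0.05) and the same change with each library left out (triangles). The circles of Postn (0.94) and Fbln2 (0.92) are filled, Tnc is the one gene below 0 (-0.50), and Fn1 runs from 0.18 without CKO B to 1.08 without CKO A.

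The other fibulins among the 10 lay above WT in both CKO libraries but did not pass. Fbln1 encodes fibulin-1, a fibronectin-binding glycoprotein of basement membranes and elastic fibres (ENSMUSG00000006369, chromosome 15, 85205949 to 85286535). It stood at 662 CPM in CKO A and 754 CPM in CKO B, against 579.6 CPM in WT A and 553 CPM in WT B. The groups did not overlap, and the log2 difference was 0.32 ± 0.13 (SE, edgeR adjusted p = 0.174). Efemp1 encodes fibulin-3, an extracellular matrix glycoprotein (ENSMUSG00000020467, chromosome 11, 28853204 to 28926743) and was the least abundant of the 10. It had 135 reads (5.14 CPM) in CKO A and 92 reads (3.97 CPM) in CKO B, against 78 reads (3.42 CPM) in WT A and 75 reads (2.83 CPM) in WT B. Efemp1 was the one gene of the 10 that was higher in CKO A than in CKO B. Its log2 difference was 0.55 ± 0.27 (SE, edgeR adjusted p = 0.255) and did not pass.

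Tnc was the one gene of the 10 that stood lower in CKO. It encodes tenascin-C, a large hexameric glycoprotein that is prominent where tissue grows or is remodelled (ENSMUSG00000028364, chromosome 4, 63959785 to 64047015, minus strand). Its level was 5152 CPM in CKO A and 5394 CPM in CKO B, against 8144 CPM in WT A and 6766 CPM in WT B. The CKO libraries lay close together and below both WT libraries. The mean was 5273 ± 171 CPM in CKO and 7455 ± 974 CPM in WT (SD, n = 2), a log2 difference of -0.50 ± 0.18 (SE) that edgeR did not call (adjusted p = 0.128). DESeq2 did call it (log2 change -0.48, adjusted p = 0.0101), and the authors' deposited table gives an adjusted p of 0.136. The non-coding gene 8030451A03Rik overlaps exons of Tnc on the other strand. It had at most 485 reads in any library, and the use of strand in counting is not given in the sources used here.

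The thrombospondins, which bind CD36, CD47 and integrins, differed by less than the spread between libraries. Thbs1 can also activate latent TGF-beta (ENSMUSG00000040152, chromosome 2, 118111876 to 118127133). It stood at 5009 CPM in CKO A and 6261 CPM in CKO B, against 5047 CPM in WT A and 4706 CPM in WT B. CKO A lay between the WT libraries and only CKO B stood above them. The log2 difference of Thbs1 was 0.21 ± 0.18 (SE, edgeR adjusted p = 0.518), and 0.05 without CKO B. Thbs2 (ENSMUSG00000023885, chromosome 17, 14665500 to 14694235) was at 407 CPM in CKO A and 668 CPM in CKO B, against 464 CPM in WT A and 532 CPM in WT B. The CKO libraries enclosed both WT libraries. The log2 difference of Thbs2 was 0.11 ± 0.24 (SE, edgeR adjusted p = 0.818) and turned to -0.28 without CKO B (adjusted p = 0.281).

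Sparc encodes a collagen-binding matricellular protein also called osteonectin (ENSMUSG00000018593, chromosome 11, 55394500 to 55423183). Its level was 5458 CPM in CKO A and 5784 CPM in CKO B, against 4583 CPM in WT A and 4543 CPM in WT B. Both CKO libraries lay above both WT libraries, with little spread within either group. The mean was 5621 ± 230 CPM in CKO and 4563 ± 28.8 CPM in WT (SD, n = 2), a log2 difference of 0.30 ± 0.16 (SE) that did not pass (edgeR adjusted p = 0.286).

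Fn1 and Vcan had overlapping groups and a wide spread between libraries of one genotype. Fn1 encodes fibronectin, which assembles into fibrils that organise other matrix proteins (ENSMUSG00000026193, chromosome 1, 71585520 to 71653200). Its level was 3040 CPM in CKO A and 5607 CPM in CKO B, against 3098 CPM in WT A and 2314 CPM in WT B. CKO A lay within the WT range, and CKO B was 1.84-fold above CKO A. The log2 difference of 0.68 ± 0.31 (SE) did not pass (edgeR adjusted p = 0.244). Without CKO A it was 1.08 (adjusted p = 0.00657), without CKO B 0.18 (adjusted p = 0.633), and with no filter on low counts 0.71 (adjusted p = 0.000421). Each gene has a single count, so the spliced forms of fibronectin that include or skip the extra domains were not separated.

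Vcan encodes versican, which binds hyaluronan and fibulins and forms a provisional matrix in developing tissue (ENSMUSG00000021614, chromosome 13, 89655312 to 89742509). It stood at 473 CPM in CKO A and 749 CPM in CKO B, against 611 CPM in WT A and 384 CPM in WT B. The groups overlapped, and WT A was 1.59-fold above WT B. The log2 difference of 0.30 ± 0.31 (SE, edgeR adjusted p = 0.615) was 0.01 without WT B and turned to -0.06 without CKO B.

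Across the 10 genes, 6 had groups that did not overlap, 5 of them higher and 1 lower in CKO. For all tested genes the share without overlap was 57.1% (27.7% higher and 29.3% lower), so the count for these genes is near the background. An unadjusted p under 0.05 was found for 4 of the 10 and for 25.2% of all tested genes. The libraries of CKO differed in the same direction for nearly all of them. CKO B was above CKO A for 9 of the 10, against 50.0% of all tested genes, and it was the highest of the 4 libraries for 8 of the 10, against 25.2% of all tested genes. CKO B was also the library with the lower Dnmt1 level, 29.5 CPM against 78.1 CPM in CKO A, and the part of Dnmt1 or of sex in the difference was not tested. The 10 genes summed to 21526 CPM in CKO A and 27110.5 CPM in CKO B, against 23400.1 CPM in WT A and 20610.3 CPM in WT B, so that the sums of the groups overlapped.

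With every library kept, other ways of testing called 2 or 3 of the 10. DESeq2 called 3, with Tnc added, where it called 8.22% of all genes it tested. With no filter on low counts 3 were called, with Fn1 added (7.87% of all genes). Postn and Fbln2 were the 2 called by limma-voom (6.25% of all genes), with RLE size factors (6.85%), with library size alone (8.47%) and with a mean CPM of at least 1 (6.84%). Leaving out CKO A gave 3 calls, with Fn1 added (11.3% of all genes), and leaving out CKO B gave Postn and Fbln2 (6.42%). Leaving out a WT library gave 0 calls in edgeR, where 3.64% of all genes were called without WT A and 2.14% without WT B. The log2 changes of Postn and Fbln2 were then 1.00 and 1.01 without WT A, and 0.90 and 0.84 without WT B.

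Levels of different genes were compared per kilobase of merged exons (GENCODE M21). The 10 genes spanned a wide range on this scale, and Sparc was the highest in both genotypes. Its level was 1441 and 1527 CPM per kilobase in CKO, against 1210 and 1199 CPM per kilobase in WT. Tnc was next in WT with 1048 and 871 CPM per kilobase, above Thbs1 with 831 and 775. In CKO the order of this pair was the other way, with Thbs1 at 825 and 1031 CPM per kilobase and Tnc at 663 and 694. Fn1 was the fourth in both genotypes, with 260 and 480 CPM per kilobase in CKO and 265 and 198 in WT.

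Postn was the fifth in CKO with 145 and 207 CPM per kilobase, and the sixth in WT with 95.2 and 89.0, where it lay below Fbln1. Fbln1 was at 151 and 173 CPM per kilobase in CKO and at 133 and 127 in WT, so that in CKO the ranges of Postn and Fbln1 overlapped. Thbs2, Vcan, Fbln2 and Efemp1 followed in that order in both genotypes, with Efemp1 at 2.52 and 1.95 CPM per kilobase in CKO and 1.68 and 1.39 in WT. Every other pair of neighbours was separate within its genotype. The order in WT was the same with the longest transcript as the length. With the authors' lengths, an alternative chosen after seeing the data as was the longest transcript, 69844 bases for Fn1 against 11685 bases of merged exons, Thbs1 had rank 1 in WT and Fn1 rank 7.

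**Figure D3:**
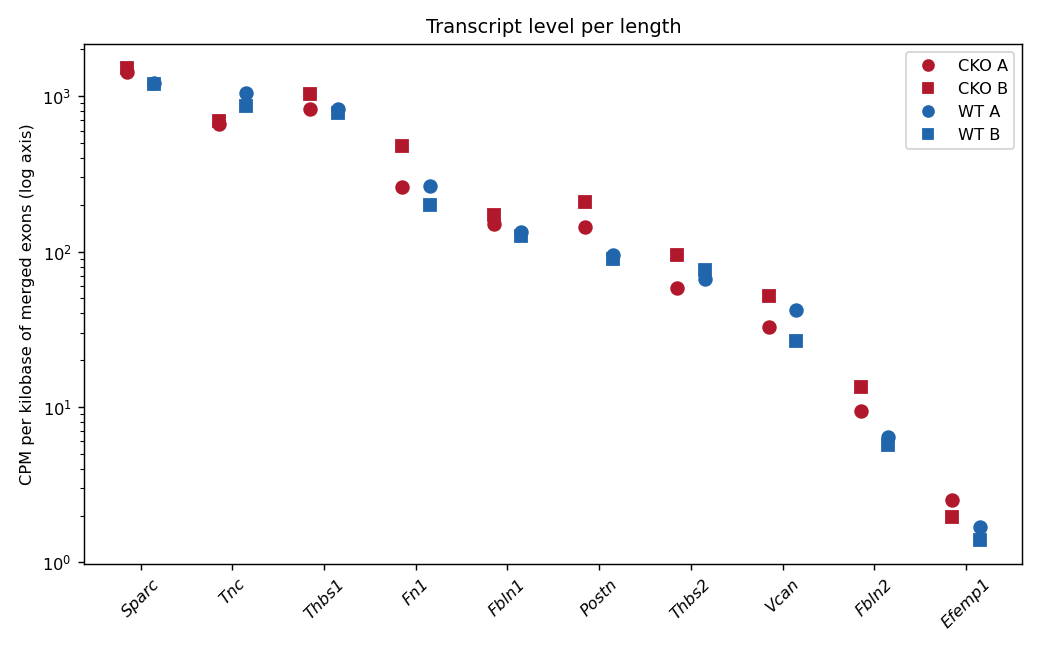
CPM per kilobase of merged exons for each gene and library on a log axis, ordered by the WT mean, with CKO left of WT. Sparc leads at 1441 and 1527 in CKO and 1210 and 1199 in WT, Tnc and Thbs1 change order between the genotypes, and Efemp1 is lowest.

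Of the other matricellular and fibulin family genes, 22 passed the filter, 2 of these rose in CKO and none fell, where 7.61% of all tested genes were called. The list's median log2 change was 0.28, with 16 above 0. Fbln7, encoding fibulin-7, stood at 26.2 and 28.5 CPM in CKO, against 17.9 and 15.2 CPM in WT (1.66-fold higher, edgeR adjusted p = 0.0237). Ccn5, a member of the CCN family formerly called Wisp2, stood at 8.11 and 11.1 CPM in CKO, against 2.94 and 4.07 CPM in WT (2.72-fold higher, edgeR adjusted p = 0.0170). The most abundant genes of the list did not pass in edgeR. Tgfbi, an integrin-binding matrix protein gene, was at 6100 and 4093 CPM in CKO against 7959 and 7438 CPM in WT, a log2 difference of -0.60 (edgeR adjusted p = 0.139). It was called lower by DESeq2 (adjusted p = 0.0124), with no filter (adjusted p = 0.0112) and without CKO A (adjusted p = 0.0105). Fstl1, which encodes a secreted SPARC-related glycoprotein, was at 3718 and 3900 CPM in CKO against 3725 and 3407 CPM in WT (log2 difference 0.10). Leaving out CKO A gave 6 higher and 1 lower, leaving out WT B gave 1 higher, leaving out CKO B gave 4 higher, library size alone gave 3 higher, DESeq2 called 5 higher and 1 lower, and the fit with no filter 7 higher and 3 lower. The call of Ccn5 was lost without WT A and that of Fbln7 without WT B.

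Receptors and cell surface partners included 1 gene that rose and 1 that fell of the 19 tested. Of all tested genes, 4.85% were called higher and 2.75% lower. The median log2 change of the receptors and partners was 0.11. Itgb5, the integrin beta-5 subunit, which pairs with alpha-v to bind periostin and other ligands, stood at 203 and 207 CPM in CKO, against 149 and 144 CPM in WT (1.40-fold higher, edgeR adjusted p = 0.0337). Ddr2, a receptor tyrosine kinase for fibrillar collagen, stood at 423 and 430 CPM in CKO, against 808 and 674 CPM in WT, and fell (log2 change -0.80 ± 0.14, SE, edgeR adjusted p = 0.0152). The call of Itgb5 was lost without either WT library and without CKO B, and that of Ddr2 without WT A, while leaving out CKO A gave 3 higher and 1 lower, library size alone 1 higher and 2 lower, and DESeq2 and the fit with no filter 2 higher and 3 lower each. The thrombospondin receptor genes Cd47 and Cd36 and the abundant Lrp1 and Itgb1 did not pass (log2 differences 0.07, 0.15, 0.11 and -0.11). Lrp1 turned to -0.05 without WT B and to -0.15 without CKO B, and Itgb1 to 0.02 without CKO B.

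Among matrix partners and modifying enzymes 3 of 18 rose and none fell, where 4.85% of all tested genes were called higher and 2.75% lower. The list's median log2 change was 0.26. Adamts1, a protease that cleaves versican, stood at 539.8 and 621 CPM in CKO, against 335 and 309 CPM in WT (1.80-fold higher, edgeR adjusted p = 0.0106). Adamts5, another versican-cleaving protease, was at 45.2 and 59.5 CPM in CKO against 33.2 and 33.2 CPM in WT (adjusted p = 0.0361). Tgm2, a transglutaminase that crosslinks fibronectin, was at 49.2 and 73.0 CPM in CKO against 29.3 and 32.1 CPM in WT (adjusted p = 0.0283). The most abundant genes were Eln, at 36230 and 35532 CPM in CKO and 27965 and 30122 CPM in WT, and Col1a1, at 12350.5 and 19362 CPM in CKO and 11376 and 9880 CPM in WT. Neither passed in edgeR (adjusted p = 0.392 and 0.193). All 3 calls were lost without WT B, and 1 gene of the list was called without WT A, 8 without CKO A, 2 without CKO B and 7 in DESeq2, while the fit with no filter gave 7 higher and 1 lower.

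TGF-beta is a known inducer of Postn, Tnc and Fn1. Of 12 TGF-beta ligands, receptors, activators and direct targets 0 were higher and 1 was lower, where 7.61% of all tested genes were called. Tgfb2 stood at 233 and 215 CPM in CKO, against 446 and 429 CPM in WT, and fell (log2 change -0.96 ± 0.12, SE, edgeR adjusted p = 0.00467). It was called without each library in turn, and leaving out CKO A gave 1 higher and 2 lower on the list, as DESeq2 did, where the fit with no filter gave 2 higher and 2 lower. Tgfb1 and Tgfb3 did not pass (log2 differences 0.36 and -0.12), nor did the abundant Ltbp2 (-0.35). Ltbp1 stood higher in both CKO libraries and did not pass either (0.73, edgeR adjusted p = 0.0554). Of the 12, 4 had a log2 change above 0 and 8 below. The list median was -0.13. Of 7 YAP targets edgeR called 0, and DESeq2 and limma-voom called 0. In edgeR 3 of the 7 had an unadjusted p under 0.05, as did 25.2% of all tested genes. Leaving out CKO A gave 1 call, lower in CKO, and so did testing with no filter on low counts. Its abundant members Ccn1 and Ccn2 had log2 differences of 0.02 and -0.31, and that of Ccn1 was below 0 with limma-voom, with library size alone, without WT B and without CKO B.

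**Figure D4:**
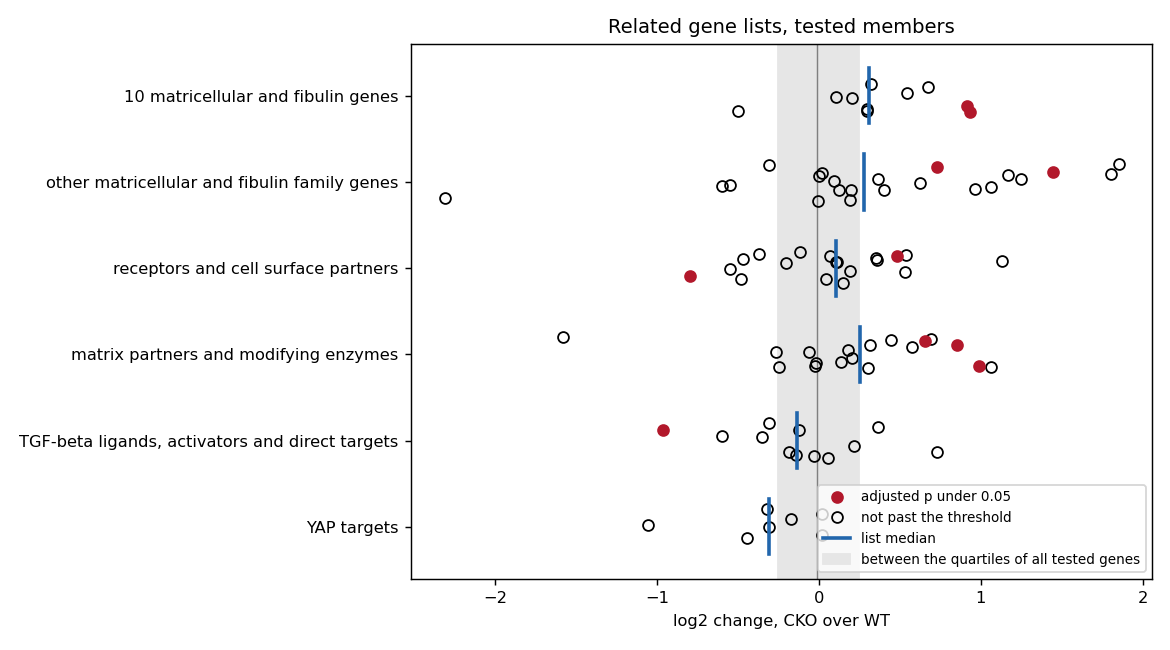
Log2 change of CKO over WT for the tested genes of each list (points, filled red where the adjusted p is under 0.05), with the list median as a blue bar and the range between the quartiles of all tested genes in grey. The medians run from 0.31 for the 10 genes and 0.28 for other family genes to -0.13 for the TGF-beta list and -0.31 for YAP targets. The lists share genes, so they are not separate comparisons. Ccn2, whose value is the YAP median, is on the family, TGF-beta and YAP lists. Tgfbi is on the family and TGF-beta lists, and Ccn1 on the family and YAP lists.

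Summed markers of 2 fibroblast subtypes stood higher in both CKO libraries. Adventitial fibroblast markers summed to 2029.7 and 2472 CPM in CKO, against 1692 and 1761 CPM in WT. Of 10 tested, 5 rose, including Pi16 (2.22-fold), Igfbp6 (2.18-fold), Serpinf1 (2.60-fold) and Dpt (1.91-fold), where 4.85% of all tested genes were called higher. Without either WT library 2 were called, and leaving out CKO A gave 8. Alveolar fibroblast and lipofibroblast markers summed to 463 and 889 CPM in CKO, against 338 and 315 CPM in WT, with Fgf10 (2.19-fold) called of 8. Alveolar myofibroblast markers summed to 12441 and 9688 CPM in CKO, against 14156 and 13586 CPM in WT. The lower sum came mostly from Tgfbi. A sum of the other 7 markers was added after seeing the data. It came to 6341 and 5595 CPM in CKO against 6197 and 6148 CPM in WT, which overlap. Acta2 made up most of this second sum in every library. Gene by gene, 6 of the 8 markers had a log2 change below 0 and 2 above, with a median of -0.41. Of the 8, edgeR called Wnt5a, which fell (log2 change -0.79), where 2.75% of all tested genes were called lower. DESeq2 called 3 of the 8 lower, library size alone 2 and the fit with no filter 4. In either direction these fits called 8.22%, 8.47% and 7.87% of all genes. Acta2, the smooth muscle actin of myofibroblasts, was present at 4057 and 3133 CPM in CKO and 3391 and 3150 CPM in WT. The sums of both fibroblast lists were highest in CKO B, as Postn and Fbln2 were. Single markers differed in this. Serpinf1 and Dpt were higher in CKO B than in CKO A. Pi16 (30.5 CPM in CKO A, 26.5 CPM in CKO B) and Igfbp6 (25.4 and 22.1 CPM) were higher in CKO A. The part of these subtypes in the rise of Postn and Fbln2 was not tested.

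Pericyte markers summed to 381 and 499.9 CPM in CKO, against 389.8 and 341 CPM in WT, so that the groups overlapped. Of the 7 smooth muscle markers Cnn1 was called (1.47-fold higher), and the sums were 3679.9 and 3163 CPM in CKO and 3979 and 3339 CPM in WT. Endothelial markers summed to 73.6 to 125 CPM in CKO and 68.2 to 96.2 CPM in WT, and epithelial markers to 74.7 to 139 CPM in CKO and 56.6 to 171 CPM in WT. Leukocyte and platelet markers summed to 32.8 to 56.0 CPM in CKO and 30.6 to 39.6 CPM in WT. Laptm5 (2.40-fold) and Cd14 (3.24-fold) were called higher of 7, where 4.85% of all tested genes were called higher. Mesothelial markers summed to 13.9 CPM in CKO A and 0.518 CPM in CKO B, against 0.834 CPM in WT A and 5.09 CPM in WT B.

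Chondrocyte markers were at 43.1 and 53.4 CPM in CKO, against 316 CPM in WT A and 70.4 CPM in WT B, with WT A the highest. Schwann cell markers summed to 43.5 and 41.7 CPM in CKO, against 2.81 and 4.53 CPM in WT. Nearly all of this was Ngfr, at 37.4 and 39.1 CPM in CKO against 0.966 and 1.32 CPM in WT (33.1-fold higher), while Sox10 had 5 and 3 reads in CKO and 0 in WT. No pericyte, endothelial, epithelial, mesothelial or chondrocyte marker was called by edgeR. In these lists 2, 0, 0, 0 and 1 markers had an unadjusted p under 0.05, against 25.2% of all tested genes. DESeq2 called 1 chondrocyte marker, lower in CKO, and no marker of the other 4. Leaving out CKO A gave 2 pericyte markers higher, the fit with no filter 3 higher, and leaving out WT B gave 1 epithelial marker higher and 2 chondrocyte markers lower. The calls of Fgf10, Cnn1, Laptm5 and Cd14 were lost without WT A and without WT B, and that of Wnt5a without WT A. The part of these cell types in the values of the 10 genes was not tested.

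**Figure D5:**
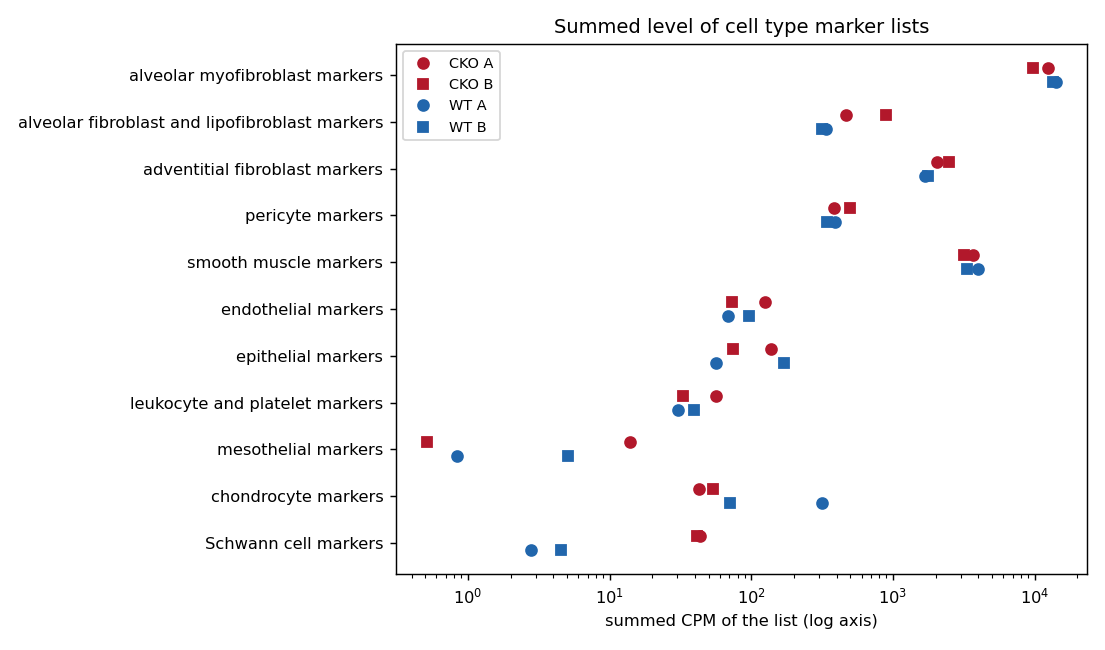
Summed CPM of each marker list in each library on a log axis, with CKO above WT within each list. Sums of adventitial and alveolar fibroblast markers are higher in both CKO libraries. The myofibroblast sum is lower in both, mostly through Tgfbi, and the sum of the other 7 markers, most of it Acta2, overlaps. The endothelial, epithelial and leukocyte lists stay at or below 171 CPM with overlapping groups.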

How the data were processed

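Total RNA of sorted cells from 2 CKO and 2 WT lungs was sequenced, per the labels' protocols. The authors deposited 1 table with raw counts per gene, RPKM values, and a log2 fold change, p-value and adjusted p-value of mutant against control, per the file headers. The submitters' processing notes name edgeR 3.28.1, STAR, Trimmomatic 0.36, cutadapt 2.5 and FastQC 0.11.8, in no order, and build GRCm38.p6. The counting tool is not given in the sources used here. The 4 columns of RPKM were not used. The deposited gene length can far exceed the merged exons (median ratio 1.22), so levels were compared per merged exon length of GENCODE M21, which matched 99.8% of gene identifiers.

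Columns headed Control hold WT and those headed Mutant hold CKO, with no replicate number. The headings of all libraries but WT A open with the same number, whose meaning is not stated. The comparison within it is the one without WT A. Replicates were not copies of one library (chi-square over its degrees of freedom 32.4 in CKO and 18.1 in WT). Litters and batches are not given, so p-values reflect the spread among these 4 libraries and no more.

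Counts were tested in R 4.3.3 with edgeR 4.0.16 (filterByExpr with a minimum count of 10, TMM, glmQLFit with robust estimation and glmQLFTest), and the fit was tested on simulated data. A standard error is the log2 change over the root of F. The biological coefficient of variation was 0.160, and 1 read was worth 0.0377 to 0.0439 CPM. Alternatives were DESeq2 1.42.0, limma-voom 3.58.1, library size alone, RLE size factors, a mean CPM of at least 1, no filter, and leaving out each library. An exact permutation test of 2 against 2 libraries cannot go below p = 0.333 and was not used. The 10 genes, 5 pathway lists and 11 marker lists were chosen with earlier results of these data known. Named from each pathway list were up to 6 called genes with the lowest p and the 2 most abundant, and from each marker list up to 4 called genes. Other names, such as Cd47, Cd36, Tgfb1, Tgfb3, Acta2 and Sox10, were chosen after their values were seen.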

Additional observations from a re-analysis of the deposited data

How the results depend on the processing

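No paired analysis was possible because the count columns carry no replicate numbers that could be matched to those of the labels. The directions of 8 of the 10 genes held under all 10 alternatives. Thbs2 ran from -0.28 to 0.45 and Vcan from -0.065 to 0.68 on the log2 scale as single libraries were left out. Among other named genes, Lrp1 ran from -0.15 to 0.37, Itgb1 from -0.23 to 0.025 and Ccn1 from -0.30 to 0.32, and Ccn1 was -0.0043 in limma-voom and -0.0082 with library size alone. The causes were not tested.

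Of the 10 genes 2 were called, and between 0 and 3 as single libraries were left out (0 without either WT library in edgeR, 4 and 3 at an unadjusted p under 0.05). Over all genes 1157 were called, 2459 with no filter on low counts, and 339 to 1842 as single libraries were left out. Over the 16 lists 19 genes were called, 35 in DESeq2, 48 with no filter, and 7 to 43 as single libraries were left out. The shares of all tested genes called were 7.61% in the main fit, 8.22% in DESeq2 and 7.87% with no filter. Among the fits that left out a library, the list count was highest without CKO A and lowest without a WT library. The count over all genes was also highest and lowest there, so the range over the lists is not particular to them. The median log2 change of all genes was -0.12 in DESeq2 and between -0.09 and 0.02 in the other fits. With 2 libraries per genotype, the differences of Sparc and Fbln1 (log2 0.30 and 0.32) were not called in any fit.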

Other observations

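Several further genes of the same families stood high in CKO without passing, and were singled out after their values were seen. Tnn, encoding tenascin-N, was at 36.4 CPM in CKO A and 107 CPM in CKO B, against 21.1 CPM in WT A and 18.7 CPM in WT B (log2 difference 1.85, edgeR adjusted p = 0.250). Fbln5, encoding the elastic fibre protein fibulin-5, was at 255 and 451 CPM in CKO, against 155 and 159.8 CPM in WT (log2 difference 1.17, edgeR adjusted p = 0.0653). Thbs4 had 82 and 100 reads in CKO, against 36 and 15 reads in WT (edgeR adjusted p = 0.0661). Itga8, an integrin subunit of lung mesenchyme that binds fibronectin and tenascin-C, was at 81.8 and 160.4 CPM in CKO, against 59.0 and 51.4 CPM in WT (edgeR adjusted p = 0.145). These genes were picked for standing high. Other family genes stood lower in both CKO libraries and did not pass either, namely Hmcn1 (log2 difference -0.55, edgeR adjusted p = 0.181), Ccn2 (-0.31, adjusted p = 0.167), and Comp, which had under 2 CPM in every library (-2.31, adjusted p = 0.144).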
